A study of Saccharomyces cerevisiae with 2 samples.

Results

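The autophagy-related (ATG) genes of budding yeast were described in 2 lists of DNase I hotspots, 1 from cells carrying the temperature-sensitive Hsp90 allele G170D and 1 from wild-type (WT) cells. A hotspot is a stretch of chromatin that DNase I cut more readily than its surroundings, as called by the authors. Members were the protein-coding genes whose standard symbol is ATG followed by a digit, which gave 37 of the 6002 protein-coding genes on the 16 nuclear chromosomes. For each member, the bases covered by hotspots were counted in the 500 bp upstream of the coding start, here called the promoter, and in the coding body.

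The G170D cells carried the mutated Hsp90 and the WT cells the unmutated one, and both strains were W303, a common laboratory background. Both cultures were grown in rich medium at 30 °C, filtered, and held at 37 °C for 15 min, a temperature the mutant does not tolerate. Each strain gave 1 library with 1 hotspot list, so no difference below has a replicate check or a test. There was also no library from before the shift, so a difference of strain and a difference that followed the shift cannot be told apart. The lists give no read numbers, and the depth behind them is unknown. The G170D list held 5988 hotspots over 3.33 Mb and the WT list 7050 over 3.83 Mb, so less sequence was covered in G170D genome-wide. Words such as lower and higher set the G170D library against the WT library.

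Autophagy delivers cytoplasm to the vacuole inside a double membrane that grows from the Atg1 kinase complex, Atg9 vesicles, a phosphatidylinositol 3-kinase and the lipid-linked ubiquitin-like protein Atg8. In rich medium the TOR kinase restrains it, while receptors such as Atg19 still carry vacuolar hydrolases in the related Cvt pathway. Nitrogen starvation raises transcription of several ATG genes, among them ATG8. The cells here were not starved. The ATG6 and ATG24 genes bear the standard symbols VPS30 and SNX4, so they fell outside the symbol rule and are described with the other pathway genes.

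As a group, ATG promoters had a hotspot in both strains somewhat less often than promoters in general, and the differences between strains sat at single loci. A hotspot touched the promoter of 26 members in G170D and of 29 in WT, and shares over all genes follow by class. It did so in both strains for 24 members (64.9%), where 72.4% of all coding genes were in this class. In G170D alone it did so for 2 members, ATG32 and ATG45 (3.65% of all genes), and in WT alone for 5, ATG2, ATG16, ATG17, ATG22 and ATG42 (9.58% of all genes). That balance held under some settings and not under others. In G170D alone and WT alone it was 2 and 6 with a 1000 bp window, and 2 and 5 with hotspots at most 50 bp apart merged. It was 2 and 4 with a 250 bp window and with the window cut at the neighbouring coding body. With equal list lengths and with at least 50 bp covered it was 3 and 3, and with the higher-scoring 50% of each list 4 and 3. The promoters of ATG5, ATG9, ATG11, ATG18, ATG21 and ATG44 had no hotspot in either strain, and 14.4% of all genes shared that state. Of the 29 ATG promoters with a WT hotspot, 82.8% also had one in G170D, against 88.3% over all genes.

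Covered lengths were similar to those of all genes. The median ATG promoter had 283 bp covered in G170D and 312 bp in WT, beside 286 bp in G170D and 317 bp in WT over all genes. Some length, 1 bp or more, was missing in G170D at 18 ATG promoters (44.2% of all genes) and added at 7 (20.8% of all genes). The median of the differences, G170D minus WT, was 0 bp both for the members and for all genes. A difference of at least 100 bp was used as the size of a call. By it 7 ATG promoters were lower in G170D (19.6% of all genes were) and 4 were higher (9.61% of all genes), while 26 differed by less. Of the members these were 18.9% and 10.8%, close to the shares over all genes.

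**Figure D1:**
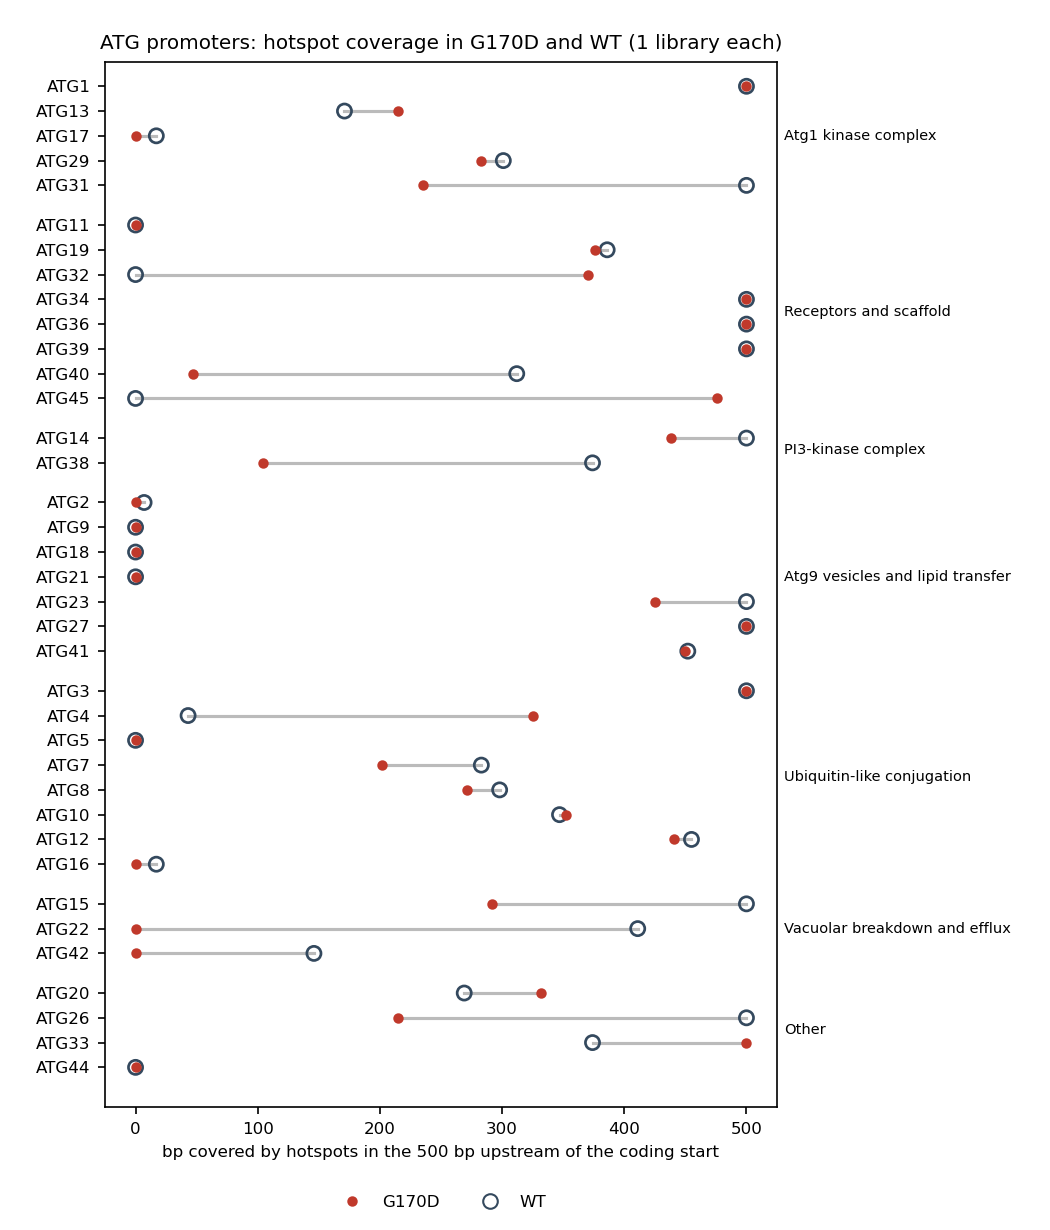
Bases covered by hotspots in the 500 bp upstream of each of the 37 ATG genes, with G170D as filled red points and WT as open blue circles, ordered by role. Lines join the 2 libraries; most points lie together, and the longest lines are those of ATG45 and ATG32, covered in G170D alone, and of ATG22, covered in WT alone.

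The Atg1 kinase complex starts autophagosome formation, and most of its promoters were similar in both strains. ATG1, which encodes the kinase, had all 500 bp of its promoter covered in G170D and in WT. The hotspot itself was 2674 bp wide in G170D (chromosome VII, 157518 to 160191, sacCer3) and 1200 bp wide in WT (159015 to 160214). Its extra length in G170D lay on the far side, over the upstream gene GTS1, and the edge inside ATG1 differed by only 23 bp. ATG13, the regulatory subunit of the kinase, had 215 bp covered in G170D and 171 bp in WT. With the higher-scoring 50% of each list the ATG13 difference was 215 bp, above the size of a call. ATG29, a subunit of the Atg17 scaffold, had 283 bp in G170D and 301 bp in WT. ATG31, another subunit of that scaffold, had 235 bp in G170D and 500 bp in WT, the only called difference in this role. The ATG31 hotspot was 483 bp wide in G170D (chromosome IV, 488415 to 488897) and 1056 bp in WT (488316 to 489371), so its upstream part was missing in G170D. In a 250 bp window the ATG31 difference was -15 bp, below the size of a call. ATG17, the scaffold gene itself, was touched over 17 bp in WT alone, by a hotspot of 31 bp at percentile 1.55 of the WT scores.

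The receptors, which tie cargo to the growing membrane, held both promoters that were covered in G170D alone. ATG45, which encodes the receptor for glycogen, had 476 bp covered in G170D and 0 bp in WT. The G170D hotspot was 1988 bp wide (chromosome IX, 309196 to 311183) and ran from 25 bp before the ATG45 start through the upstream gene YKE4 into TIM44. In WT a hotspot of 789 bp (310327 to 311115) lay wholly inside that span, within YKE4, with its nearer edge 1156 bp before the ATG45 start. The coverage of the ATG45 window in G170D thus belonged to a wider form of a hotspot that both strains had, and 286 bp of the window lie in the YKE4 coding body.

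ATG32, which encodes the mitochondrial outer membrane receptor of mitophagy, had 370 bp covered in G170D and 0 bp in WT. Here the G170D hotspot was 620 bp wide (chromosome IX, 75524 to 76143), met no WT hotspot anywhere, and straddled the coding start with 250 bp inside the gene. It was a low-ranking interval, at percentile 25.4 of the G170D scores, and with the higher-scoring 50% of each list the ATG32 difference was 0 bp. At ATG40, the gene of a receptor for endoplasmic reticulum, the promoter had 47 bp covered in G170D and 312 bp in WT. The 312 bp WT hotspot (chromosome XV, 618436 to 618747) ranked low, at percentile 9.10 of its list. Next to it, a strong hotspot between ATG40 and the divergent drug pump gene PDR5 was 1097 bp wide in G170D (618742 to 619838) and 809 bp in WT (618900 to 619708). With equal list lengths, or with the higher-scoring 50% of each list, the weak WT interval dropped out and ATG40 became 47 bp higher in G170D.

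The other receptor promoters hardly differed. ATG34 (receptor of the vacuolar mannosidase Ams1), ATG36 (the peroxisome receptor) and ATG39 (the receptor of the nuclear envelope) had all 500 bp covered in both strains. ATG19, the Cvt receptor gene, had 376 bp in G170D and 386 bp in WT. ATG11, the scaffold gene of selective autophagy, had no hotspot in its promoter in either strain.

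Of the PI3-kinase complex subunits that carry an ATG symbol, ATG14 had 438 bp covered in G170D and 500 bp in WT, a difference of -500 bp with the higher-scoring 50% of each list and of -369 bp in a 1000 bp window. ATG38 had 104 bp in G170D and 374 bp in WT, where a 464 bp hotspot (chromosome XII, 564442 to 564905) reached into the gene. The G170D hotspot was 104 bp wide (564763 to 564866), lay inside the WT one and scored at percentile 2.51 of its list, close to the lowest values the authors kept. With the higher-scoring 50% of each list the ATG38 difference was 0 bp.

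Genes of Atg9 vesicles and lipid transfer fell into covered and uncovered promoters, the same way in both strains except for 7 bp at ATG2 in WT alone. ATG27 had 500 bp covered in both strains, ATG41 450 bp in G170D and 452 bp in WT, and ATG23 425 bp in G170D and 500 bp in WT, all 3 being genes of Atg9 transport. ATG9, the gene of the lipid scramblase on these vesicles, and ATG18 and ATG21, which encode phosphoinositide-binding proteins, had 0 bp in either strain. ATG2, the gene of the lipid transfer protein, had 0 bp in G170D and 7 bp in WT, the upstream edge of a hotspot that lay mostly inside the gene. None of these 7 promoters differed by 100 bp.

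Of the 8 conjugation genes, which attach Atg8 to lipid and Atg12 to Atg5, only ATG4 passed the 100 bp size. ATG8, the ubiquitin-like protein gene and the most used reporter of autophagy, had 271 bp covered in G170D and 298 bp in WT. Its promoter hotspot spanned 80774 to 81044 in G170D and 80771 to 81068 in WT (chromosome II), so the edge nearer to the gene lay 3 bp apart. The G170D interval stood at percentile 46.6 of its list and the WT interval at 63.0, so with the higher-scoring 50% of each list ATG8 differed by -298 bp. ATG3 (E2 enzyme) had 500 bp in both strains, ATG12 441 bp in G170D and 455 bp in WT, and ATG10 (the other E2) 352 bp in G170D and 347 bp in WT. ATG7, the E1 enzyme gene, had 202 bp in G170D and 283 bp in WT. ATG4 encodes the protease that matures Atg8 and frees it from lipid, and it had 325 bp in G170D and 43 bp in WT. The hotspot at its start was of similar width, 438 bp in G170D (chromosome XIV, 227045 to 227482) and 383 bp in WT (227327 to 227709), but lay further upstream in G170D, with 156 bp in common. Both intervals were weak, at percentile 20.9 of the G170D scores and 15.3 of the WT scores, and the ATG4 difference was 0 bp with the higher-scoring 50% of each list. ATG16 was touched over 17 bp in WT alone, by a hotspot of its coding body that both strains had, and ATG5 had none.

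The 3 genes of vacuolar breakdown and efflux each had less promoter covered in G170D, but the calls at ATG22 and ATG42 rested on intervals in the lower-scoring 50% of the WT list. ATG22, which encodes a vacuolar amino acid exporter, had 0 bp covered in G170D and 411 bp in WT. The WT hotspot was 487 bp wide (chromosome III, 56452 to 56938), covered the first 76 bp of the gene, met no G170D hotspot and scored at percentile 47.0 of its list, so the difference was 0 bp with the higher-scoring 50% of each list. ATG42, a vacuolar carboxypeptidase gene, had 0 bp in G170D and 146 bp in WT, where the hotspot ranked at percentile 0.74 of the WT list. The ATG42 difference was 0 bp with the higher-scoring 50%, with equal list lengths and with a 250 bp window, and -69 bp with the window cut at the neighbouring gene. ATG15, which encodes the lipase that breaks up autophagic bodies, had 292 bp in G170D and 500 bp in WT. Its hotspot had nearly the same far edge in both strains (chromosome III, 236038 in G170D and 236037 in WT), but ended at 237005 in G170D and at 237359, inside the gene, in WT.

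Among the remaining genes, ATG26, a sterol glucosyltransferase gene, had 215 bp covered in G170D, in 2 pieces, and 500 bp in 1 piece in WT. ATG33, a mitophagy gene of the mitochondrial outer membrane, had 500 bp in G170D and 374 bp in WT. There a 1432 bp hotspot in G170D (chromosome XII, 839034 to 840465) took in WT hotspots of 571 and 162 bp. ATG20, a sorting nexin gene, had 332 bp in G170D and 269 bp in WT. ATG44, which encodes a mitochondrial fission protein, had no hotspot in promoter or body in either strain, a state it shared with ATG18 among the 37.

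**Figure D2:**
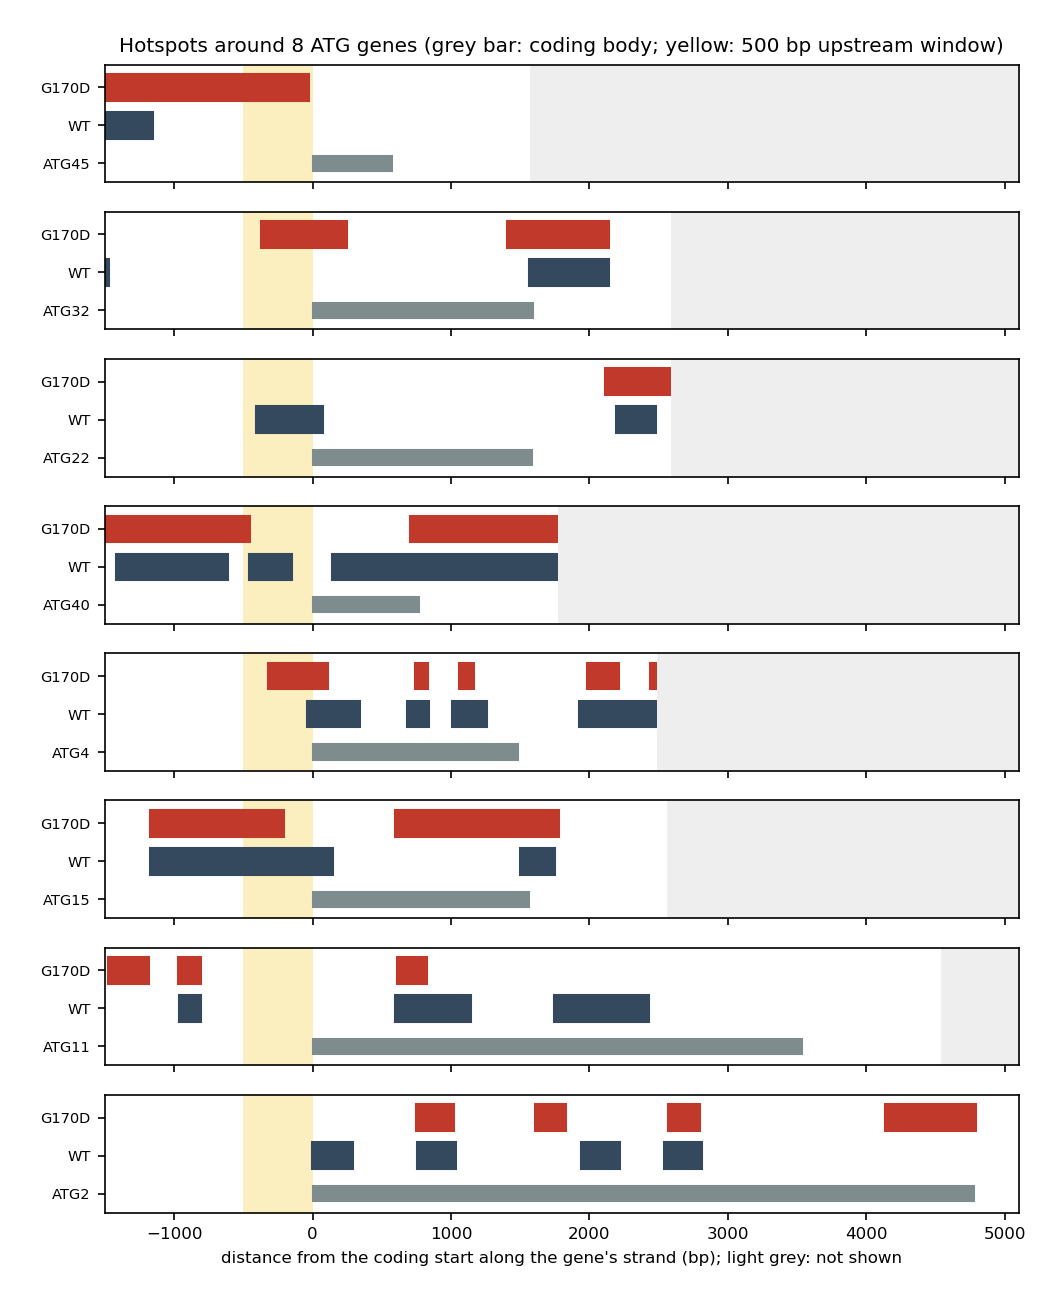
Hotspots of G170D (red) and WT (blue) around 8 ATG genes, plotted by distance in bp from the coding start along each gene's strand, with the coding body as a grey bar and the promoter window in yellow. ATG45 and ATG32 have a G170D interval in the window and none in WT, ATG22 the reverse, and ATG15 has a G170D interval inside its body that is far shorter in WT.

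Promoter windows were shared with neighbours. The window reached into the coding body of the upstream gene for 21 of the 37 members, and 19 members lay head to head with a divergent gene. Of those 19, 14 had a promoter hotspot in G170D and 17 in WT. Of the 18 tandem members, 12 had one in G170D and 12 in WT, and ATG32 and ATG45 belong to this arrangement. A hotspot between divergent genes cannot be assigned to one of them. The counts in this paragraph were not made over all coding genes. Without such a share, no trait particular to the ATG genes can be read from them.

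Coding bodies of ATG genes were mostly less covered in G170D, by small amounts. A hotspot touched 29 bodies in G170D and 33 in WT. No base was covered in 21.6% of ATG bodies in G170D and 10.8% in WT, beside 25.4% in G170D and 19.8% in WT over all genes. More ATG bodies than bodies in general thus had WT coverage that could be lower in G170D. The median covered share was 21.0% in G170D and 25.6% in WT, beside 13.6% in G170D and 19.7% in WT over all coding genes. The covered length was lower in G170D by at least 1 bp for 26 of 37 members (55.7% of all genes) and higher for 7 (23.2% of all genes). The median difference, G170D minus WT, was -5.76 percentage points for the members and -1.41 points over all genes. With a difference of at least 20 points as the size of a call, 5 bodies were lower (15.3% of all genes) and 2 higher (9.43% of all genes), which is 13.5% and 5.41% of the members. The share of members with any loss was 70.3%. No test of this was possible with 1 library per strain, and the higher-scoring 50% of each list gave a median of -0.57 points for the members and 0 over all genes.

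The 5 bodies with a called loss were ATG40, ATG4, ATG11, ATG38 and ATG19. With the higher-scoring 50% of each list the calls at 3 of them ended, with differences of 0 points at ATG4 and ATG38 and -1.92 points at ATG19, while ATG10, ATG14 and ATG26 passed the size. With equal list lengths ATG4 stood at -18.9 points, below it. ATG40 had 8.43% of its body covered in G170D and 81.7% in WT, the widest gap of the 37. A WT hotspot of 1635 bp (chromosome XV, 616513 to 618147) ran from the neighbouring gene RPB2 through most of ATG40, and in G170D its counterpart stopped at 617582, 65 bp into the 3' end. ATG4 had 21.0% covered in G170D and 50.8% in WT, in 3 intervals that each strain had and that were each longer in WT inside the gene. ATG11 had 6.08% in G170D and 34.8% in WT, which is 215 bp in G170D and 1232 bp in WT of a long gene, and the largest loss in bases of the 37. Its WT hotspot of 680 bp (chromosome XVI, 662247 to 662926) had no counterpart in G170D. ATG38 had 16.1% in G170D and 45.0% in WT, and ATG19 had 0% in G170D and 23.1% in WT. At ATG19 a 264 bp WT hotspot in the middle of the gene, at percentile 37.0 of its list, was missing in G170D.

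Losses under 20 points could still be long. ATG9 had 49 bp of its body covered in G170D and 609 bp in WT, because hotspots of 156 and 405 bp in WT met none in G170D. What was left at ATG9 was a short interval at the start that the strains shared, 49 bp in G170D and 48 bp in WT. The WT hotspots of 156 and 405 bp ranked low, at percentiles 31.8 and 29.1 of the WT list. With the higher-scoring 50% of each list the ATG9 body difference was 0 points. ATG26 had 525 bp in G170D and 948 bp in WT.

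The 2 bodies with a called gain were ATG15 and ATG32. With the higher-scoring 50% of each list the ATG32 call ended, at 9.87 points, while ATG33 passed the size, at 24.4 points. ATG15 had 61.9% of its body covered in G170D and 13.6% in WT. A G170D hotspot of 1186 bp (chromosome III, 237810 to 238995), at percentile 94.0 of its list, filled the second part of the gene. There WT had a 258 bp hotspot over the 3' end, with 67 bp inside the gene. At this gene, coverage was thus lower at the start and higher in the body. ATG32 had 27.2% in G170D and 1.64% in WT, of which 250 bp belonged to the hotspot at its start described above. ATG2 was next in bases, with 1376 bp covered in G170D and 1142 bp in WT, but the places differed. WT alone had a 302 bp interval at the ATG2 start and a 286 bp interval further in. G170D alone had a 222 bp interval within the ATG2 body and a 655 bp interval at its 3' end (chromosome XIV, 195459 to 196113). The ATG2 body difference was 4.90 points, but -4.44 points with the higher-scoring 50% of each list. ATG33 had 145 bp in G170D and 61 bp in WT, and ATG20 and ATG3 had 10 and 8 bp more in G170D.

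Some ATG bodies were covered over most of their length in both strains. ATG29 had 90.0% covered in G170D and 94.1% in WT, ATG16 had 82.6% in G170D and 91.2% in WT, and ATG39 had 77.4% in G170D and 76.8% in WT. The body of ATG8 had 25.4% covered in G170D and 25.7% in WT, that of ATG1 22.7% in G170D and 25.6% in WT, and that of ATG14 40.3% in G170D and 52.5% in WT. ATG18, ATG41, ATG44 and ATG45 had no covered base in the body in either strain. In the other members, all lower in G170D, the difference lay between -16.75 points at ATG31 and -0.27 points at ATG21.

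**Figure D3:**
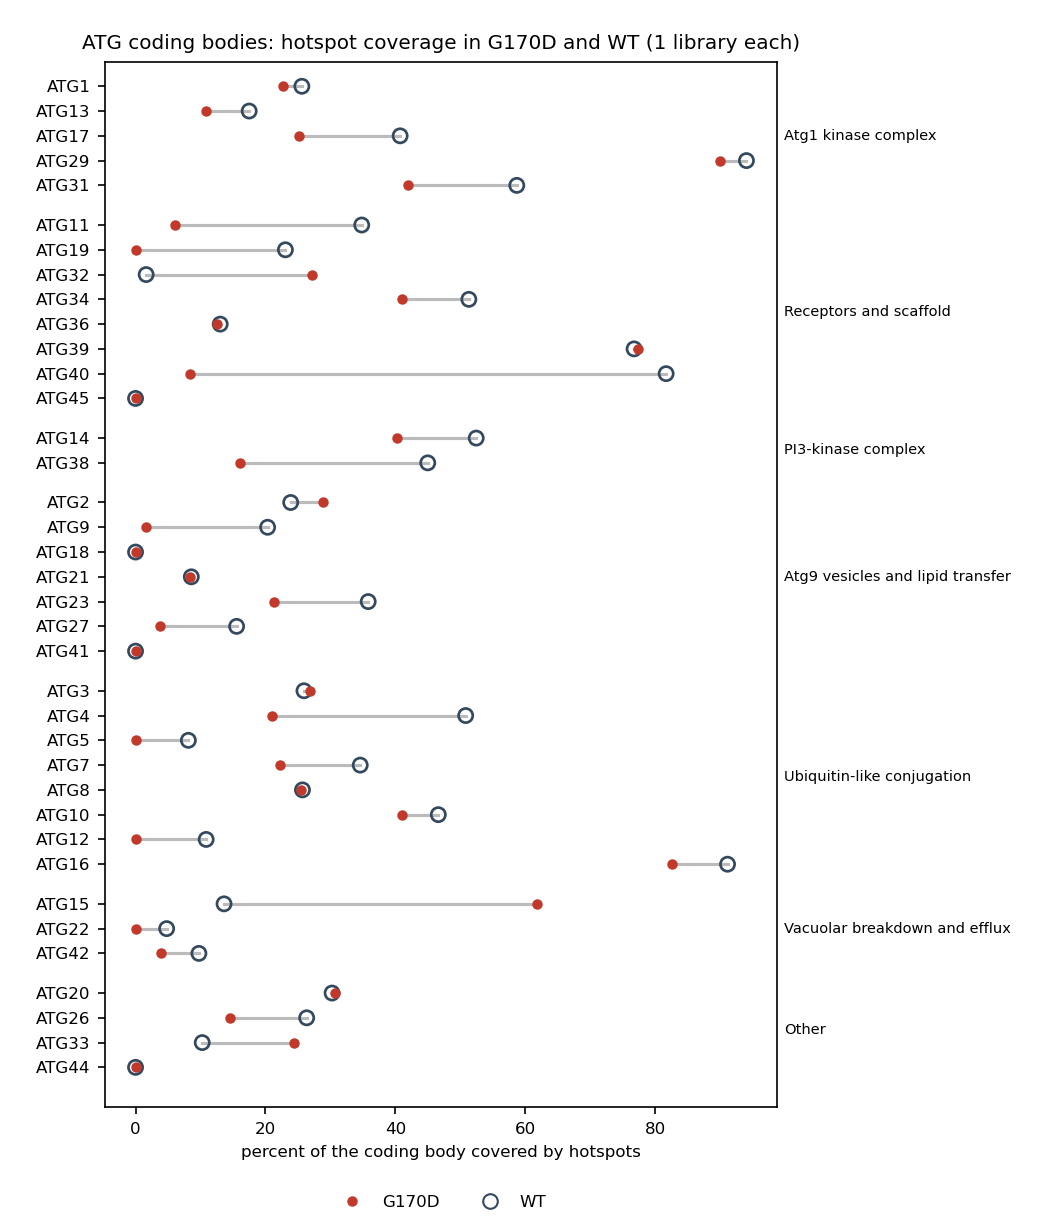
Percent of the coding body covered by hotspots for each of the 37 ATG genes, with G170D as filled red points and WT as open blue circles, ordered by role. Most red points lie at or left of the blue circles, ATG40 has the longest line to the left, and ATG15 and ATG32 are the long lines to the right.

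By position, ATG genes were covered most often upstream of the start, as were all genes, and had a low point after the start. At 200 bp upstream of the start, 56.8% of ATG genes were covered in G170D and 62.2% in WT, beside 59.4% of all genes in G170D and 64.3% in WT. At the start itself the shares were 40.5% in G170D and 54.1% in WT, beside 49.8% of all genes in G170D and 55.0% in WT. The lowest shares were around 450 bp after the start, where 2 of 37 members were covered in G170D (5.41%) and 6 of 37 in WT (16.2%), beside 23.8% of all genes in G170D and 26.7% in WT. That position was picked as the lowest of the members. Over all genes the G170D share had no such low point there and was 21.6% at 900 bp. ATG8, ATG41 and ATG44 are shorter than 450 bp, so the position lies past their ends. Cut into 3 equal segments, the ATG body had a mean of 29.3% covered in G170D and 37.1% in WT in the segment nearest the start, beside 31.9% in G170D and 35.4% in WT over all genes. In the middle segment the means were 15.2% in G170D and 23.6% in WT, beside 21.8% in G170D and 24.7% in WT over all genes. In the segment nearest the end they were 23.5% in G170D and 29.2% in WT, beside 24.4% in G170D and 28.5% in WT over all genes, so all 3 segments were lower in G170D, as they were over all genes.

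**Figure D4:**
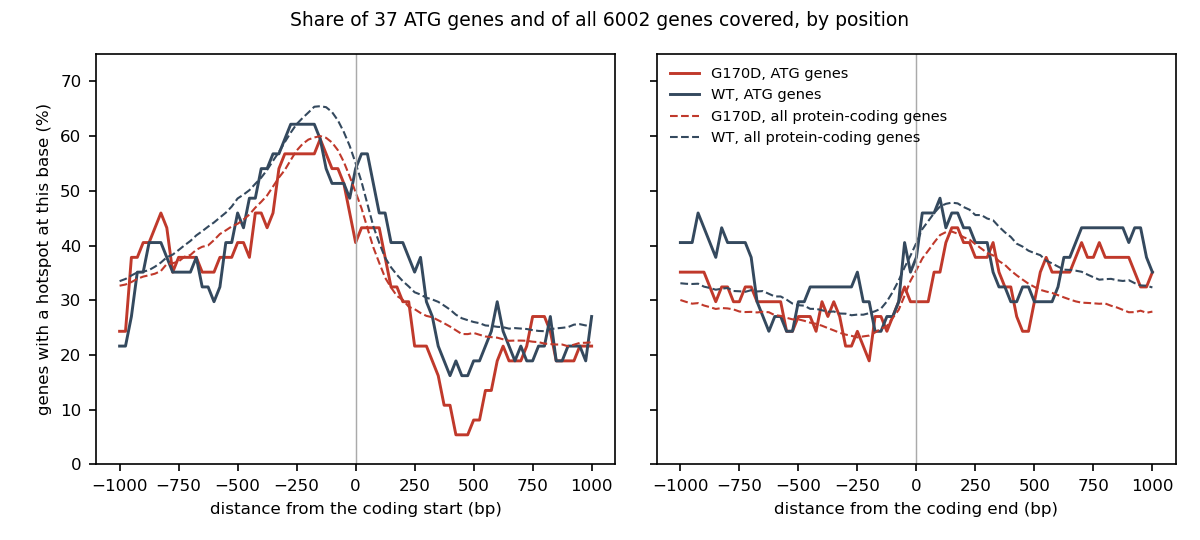
Percent of genes with a hotspot at each base from 1000 bp before to 1000 bp after the coding start (left) and the coding end (right), for the 37 ATG genes (solid) and all 6002 coding genes (dashed), in G170D (red) and WT (blue). ATG and all-gene lines lie close 200 bp upstream of the start, and the ATG lines are lowest about 450 bp after the start, at 5.41% in G170D and 16.2% in WT.

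Taking hotspots in place of genes, 56 G170D hotspots and 65 WT hotspots touched an ATG promoter or body. A hotspot of the other strain overlapped 51 of the 56 G170D hotspots (91.1%) and 50 of the 65 WT hotspots (76.9%), beside 90.2% of the whole G170D list and 73.4% of the whole WT list. The 5 found in G170D alone had a median width of 224 bp and the 15 found in WT alone one of 179 bp, against 543 bp over all G170D and 430 bp over all WT hotspots at ATG genes. The WT-only ones ranked at a median percentile of 31.8 in their list and the highest at 51.8.

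Genes that act with the ATG proteins were taken from a list of 46 genes for the lipid kinase, Cvt cargo, vacuole fusion, TOR signalling and transcriptional control of autophagy. Of their promoters 36 had a hotspot in both strains (78.3%, beside 72.4% of all genes), 1 in G170D alone (2.17%, beside 3.65%), 5 in WT alone (10.9%, beside 9.58%) and 4 in neither (8.70%, beside 14.4%). By the 100 bp size 2 promoters were higher in G170D (4.35%, beside 9.61% of all genes) and 11 lower (23.9%, beside 19.6%). By the 20 point size 5 bodies were higher (10.9%, beside 9.43% of all genes) and 7 lower (15.2%, beside 15.3%). FIS1, which encodes the tail-anchored adaptor of mitochondrial fission, was the promoter covered in G170D alone, with 340 bp in G170D and 0 bp in WT, and its body had 100% covered in G170D and 0% in WT. The promoters in WT alone were those of AMS1, the Cvt cargo mannosidase (0 bp in G170D and 494 bp in WT), CUE5, the receptor of ubiquitinated cargo (0 bp in G170D and 264 bp in WT), and DNM1, the fission dynamin (0 bp in G170D and 284 bp in WT). VAC8, the vacuolar armadillo protein gene (0 bp in G170D and 248 bp in WT), and VPS15, the regulatory subunit gene of the PI3-kinase (0 bp in G170D and 217 bp in WT), completed them.

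At 3 more pathway promoters the covered length was lower by at least 200 bp. HSV2, a relative of ATG18 and ATG21, had 108 bp in G170D and 500 bp in WT, and TRS85, a tethering complex gene, had 27 bp in G170D and 330 bp in WT. SNX4, also known as ATG24 and the partner of ATG20, had 287 bp in G170D and 500 bp in WT, and its body had 0% covered in G170D and 71.9% in WT. VPS30, also known as ATG6, had 251 bp in G170D and 207 bp in WT, with 6.15% of the body covered in G170D and 30.1% in WT. VPS34, the catalytic subunit of the same kinase, had 466 bp in G170D and 500 bp in WT. Of the transcriptional repressors of ATG8 and other ATG genes, UME6 had 500 bp in both strains and RPH1 had 199 bp in G170D and 382 bp in WT. RPD3 had 201 bp in G170D and 188 bp in WT, and SIN3 and PHO23 had 0 bp in either strain. The PHO23 body had 75.4% covered in G170D and 23.0% in WT.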

How the data were processed

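The data are 1 DNase-seq library of G170D and 1 of WT, assigned to strains by source label. Nuclei received a limited DNase I digestion before size selection and HiSeq2000 sequencing, per the labels' protocols. FastQC 0.10.1, Bowtie 1.0.0 and the build sacCer3 appear in the submitters' processing notes. For the hotspot-calling program and its threshold, the sources used here give nothing. The deposited files hold, for each sample, hotspot positions with a score from the authors, whose scale is not stated. It was used only as a percentile within its own list.

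Genes came from RefSeq coordinates of assembly R64 (sacCer3), with strand from the W or C of the systematic name. Coordinates count from 1. Covered bases were counted with Python 3.11.15, numpy 2.4.6 and pandas 2.3.3, and a hotspot counted from 1 bp. On simulated lists, coverage and classes were right for 100% of 6002 genes. A planned search of promoter sequences for motifs was not run here. The ATG members, roles and pathway list were chosen with earlier results of these data known. Hotspot spans were planned for members with the promoter hotspot in 1 strain or among the 6 largest gains or losses of promoter or body. ATG1, ATG8, ATG9 and ATG14 were always to be given. The spans were printed for only some of these members, and not for ATG9, ATG14, ATG16, ATG17 and ATG42, among others. Pathway genes were named where the promoter hotspot was in 1 strain or the covered length differed by 200 bp. VPS30, VPS34, UME6, RPH1, RPD3, SIN3 and PHO23 were named beyond that rule, after their values were seen.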

Additional observations from a re-analysis of the deposited data

How the results depend on the processing

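Counts of ATG genes were recomputed under 8 alternatives. Promoters in G170D alone numbered 4 with the higher-scoring 50% of each list, against 2. Promoters in WT alone numbered 3, against 5, with that cut, with equal list lengths and with at least 50 bp covered. Promoters in neither strain numbered 13 with the higher-scoring 50% and 3 with a 1000 bp window, against 6. Higher promoters numbered 8 with a 1000 bp window, against 4. With 200 bp and 40 points as the sizes of a call, 1 body was higher and 1 lower, against 2 and 5. The median body difference was -0.57 points with the higher-scoring 50%. ATG40 reversed to 47 bp higher in G170D with equal list lengths and with the higher-scoring 50%, since its WT interval ranked low. Over 407 recomputed member values, 30 changed their call, these 2 included.

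For the 46 pathway genes, promoters in G170D alone numbered 2 with a 1000 bp window and with equal list lengths, and 3 with a 250 bp window and with the higher-scoring 50%, against 1. Promoters in WT alone numbered 3 with a 1000 bp window and with the higher-scoring 50%, against 5, and those in neither numbered 2 and 12, against 4. Higher promoters numbered 9 with a 1000 bp window, 4 with the higher-scoring 50% and 1 with the 200 bp size, against 2. Lower promoters numbered 7 with a 250 bp window and with the higher-scoring 50%, against 11. Lower bodies numbered 3 with the 40 point size, against 7, and the median promoter difference was -41.5 bp with a 1000 bp window. Beyond smaller or larger sizes, windows and lists, the cause was not tested. Unknown depth limits every absent hotspot, which is one that was not called. No paired analysis was possible because each strain has 1 library and no result comes from a test.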

Other observations

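The 500 bp after the coding end had a median of 90 bp covered in G170D and 115 bp in WT over the 37 ATG genes, beside 155 bp in G170D and 208 bp in WT over all coding genes. By the 100 bp size, 7 of these flanks were lower and 3 higher in G170D, which is 18.9% and 8.11% of the members, beside 19.1% and 8.03% of all genes. The longest losses were at ATG7 (148 bp in G170D and 500 bp in WT), ATG3 (0 bp in G170D and 344 bp in WT) and ATG9 (146 bp in G170D and 457 bp in WT). The gains were at ATG41 (300 bp in G170D and 0 bp in WT), ATG26 (360 bp in G170D and 115 bp in WT) and ATG14 (236 bp in G170D and 0 bp in WT). These flanks were named after their values were seen.

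Bodies of several pathway genes also differed widely, and these too were named after their values were seen. PRB1, which encodes vacuolar proteinase B, had 81.1% of its body covered in G170D and 0% in WT, and VAM7, a vacuolar fusion gene, had 100% in G170D and 25.2% in WT. In the other direction, YPT1, a Rab gene, had 47.5% in G170D and 100% in WT, and YKT6, a SNARE gene, had 3.48% in G170D and 52.4% in WT.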
